A study of Rattus norvegicus with 8 samples.

Results

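The small leucine-rich proteoglycans are secreted matrix proteins built from a stack of leucine-rich repeats, and most carry glycosaminoglycan chains. They bind collagen, set how fibrils grow and pack, and hold growth factors in the matrix. When released, decorin and biglycan can also act on innate immune receptors. In the cervix this matrix bears the load of pregnancy and is remodelled before birth. The 8 genes described here, Dcn, Bgn, Lum, Fmod, Ogn, Prelp, Aspn and Podn, were taken by symbol from the deposited count table. All 8 were found among its 29884 gene symbols, and all 8 were among the 16117 genes that passed a filter on low counts.

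RNA came from whole cervix of wild-type pregnant Sprague-Dawley rats on gestational day 17. The LPS group had received 100 µg/kg of lipopolysaccharide (LPS), a bacterial outer membrane glycolipid, into the peritoneal cavity 12 hours earlier. Controls were given phosphate-buffered saline (PBS) in matched volume. Each group held 4 libraries, which the design text calls biological replicates. The comparison asks which cervical transcripts change in this inflammatory model of preterm birth.

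Total counts ran from 33191039 (PBS replicate 4) to 40634384 per library. Of 8 genes that mark the position and hormone receptors of the reproductive tract, all 8 were tested, and their summed level was 612 to 673 CPM in PBS and 568 to 815 CPM in LPS. Of these, Hoxa13 rose by 0.54 (adjusted p = 0.0297), and the progesterone receptor Pgr and Emx2 fell by 0.63 (adjusted p = 0.0370) and 0.65 (adjusted p = 0.0406), all 3 named after their values were seen. Leaving out any one of 6 libraries ended the rise, and any one of 6 ended both falls. CPM are counts per 1e+06 counts of the library, with libraries brought to a common scale by TMM, a trimmed mean of log ratios. All 6 trophoblast markers fell below the filter, and 3 of them (Prl5a1, Prl6a1 and Gcm1, named after their values were seen) had 0 counts in every library. Earlier work on these data singled out PBS replicate 1 and LPS replicate 2 for low levels of most neuron genes, so each member's value without both was also computed.

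After LPS, decorin (Dcn) and lumican (Lum) transcripts rose, those of PRELP (Prelp) and osteoglycin (Ogn) fell, and those of biglycan (Bgn), fibromodulin (Fmod), asporin (Aspn) and podocan (Podn) passed the test in neither direction. Thus 2 of 8 members were higher and 2 lower at an adjusted p under 0.05. Of all genes tested, 9.49% were higher and 7.45% lower, 16.9% in all. The median log2 fold change, LPS minus PBS, was -0.19 over the 8 members and 0.01 over all genes tested. The ranges of the groups did not overlap for the same 4 members, 2 higher and 2 lower, against 12.9% of all genes tested higher and 10.5% lower, 23.4% in all. At least 2-fold and called were 2 members higher (4.74% of all genes) and 0 lower (3.14%).

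**Figure D1:**
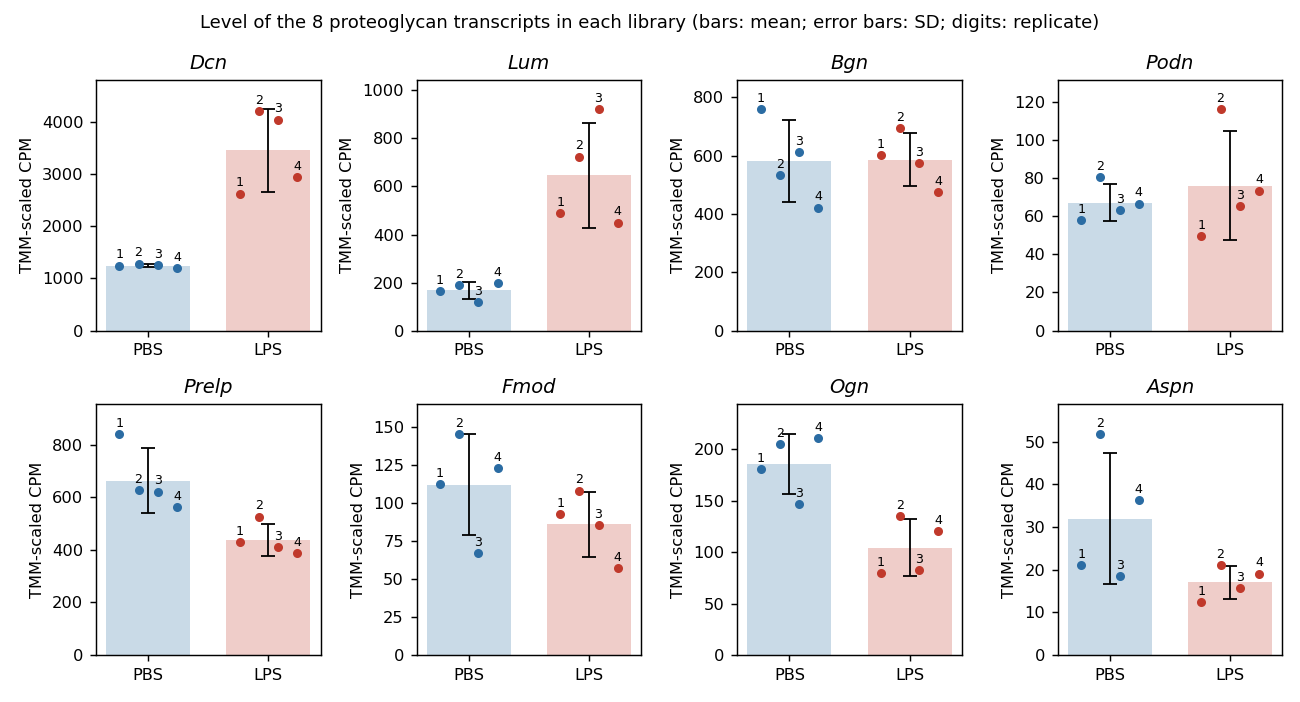
Level of each of the 8 transcripts in TMM-scaled CPM (vertical axis, from 0, with its own scale in each panel) in the 4 PBS and the 4 LPS libraries. Bars are means, error bars are SD, points are libraries and digits are replicate numbers. The LPS points lie above all PBS points for Dcn and Lum and below all of them for Prelp and Ogn.

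Decorin, which carries a single chondroitin or dermatan sulfate chain and coats collagen fibrils, was nearly constant among the controls. Its levels were 1244, 1282.5, 1253 and 1199.8 CPM in PBS replicates 1 to 4, and 2621, 4199, 4039 and 2938.5 CPM in LPS replicates 1 to 4. Every LPS library held more than 2 times the level of any control, and LPS replicates 2 and 3 were the highest. The lowest and highest controls differed by a factor of 1.07, and the LPS libraries by a factor of 1.60. The log2 fold change was 1.47 (SE 0.16, edgeR quasi-likelihood adjusted p = 0.00124), a 2.77-fold difference. Decorin alone took between 0.121% and 0.128% of all counts in PBS and between 0.263% and 0.411% in LPS.

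Biglycan is the closest relative of decorin, bears chondroitin or dermatan sulfate chains, and can signal through Toll-like receptors when soluble. It did not follow decorin. Its levels were 758, 533, 611 and 422 CPM in PBS replicates 1 to 4 and 602, 695, 574 and 474 CPM in LPS replicates 1 to 4. The LPS values all lay within the PBS range, with PBS replicate 1 the highest and PBS replicate 4 the lowest of the 8. The log2 fold change was 0.01 (SE 0.19, adjusted p = 0.971), and its sign turned when PBS replicate 2, PBS replicate 4 or LPS replicate 2 was left out, within -0.12 to 0.16.

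Asporin, also of the decorin class, has no glycosaminoglycan chain, and 500 to 2096 reads were counted per library. It held 21.1, 51.9, 18.5 and 36.4 CPM in PBS replicates 1 to 4 and 12.4, 21.1, 15.7 and 19.0 CPM in LPS replicates 1 to 4. The PBS libraries were the most uneven of any member's, with a coefficient of variation of 48.3%, and the groups overlapped. The value of -0.91 (SE 0.33, adjusted p = 0.0952) did not pass. Without PBS replicate 2, which held the most, it was -0.57. Of the 17 other settings 2 called it, DESeq2 (adjusted p = 0.0301) among them, and adjusted p over all of them ran from 0.0301 to 0.230.

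Lumican, fibromodulin and PRELP belong to a class in which some members can carry keratan sulfate. Lumican, a collagen-binding protein that also presents bacterial lipopolysaccharide to CD14, had 163, 191, 117 and 197 CPM in PBS replicates 1 to 4 and 490, 724, 921 and 449 CPM in LPS replicates 1 to 4. All 4 LPS libraries exceeded every control, and LPS replicate 3 was the highest. Its log2 fold change of 1.95 (SE 0.26, adjusted p = 0.00258) was the largest rise in the family, a 3.87-fold difference. The rises of Dcn and Lum were called under each of 17 other settings, with log2 values of 1.36 to 1.58 for Dcn and of 1.73 to 2.09 for Lum.

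Fibromodulin guides the crosslinking of collagen. It held 113, 146, 66.9 and 123 CPM in PBS replicates 1 to 4 and 92.5, 108, 85.7 and 57.1 CPM in LPS replicates 1 to 4. The groups overlapped, LPS replicate 4 being the lowest of the 8 and PBS replicate 3 the next. Its value of -0.38 (SE 0.26, adjusted p = 0.336) did not pass under any of the 17 other settings.

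PRELP anchors basement membranes to the underlying collagen and binds heparan sulfate. Its levels were 843, 628, 622 and 563 CPM in PBS replicates 1 to 4 and 429, 527, 410 and 388 CPM in LPS replicates 1 to 4. Each LPS library was below each control, although LPS replicate 2 came close to PBS replicate 4. It fell by 0.60 on the log2 scale (SE 0.15, adjusted p = 0.0291), to 0.660 times the PBS level. The call was lost when PBS replicate 2 or 3 or LPS replicate 1, 3 or 4 was left out (adjusted p of up to 0.0731), with values within -0.71 to -0.47.

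Osteoglycin, also called mimecan, is a short family member of bone, cornea and vessel walls. Its levels were 181, 205, 146 and 211 CPM in PBS replicates 1 to 4 and 79.3, 135, 82.4 and 121 CPM in LPS replicates 1 to 4. The groups did not overlap, but the highest LPS library, replicate 2, lay just under PBS replicate 3. It fell by 0.83 on the log2 scale (SE 0.20, adjusted p = 0.0240), or 43.9%. Leaving out PBS replicate 2, PBS replicate 4, LPS replicate 1 or LPS replicate 3 ended the call (adjusted p of up to 0.0687), with values within -0.99 to -0.72. Both falls were thus nearer to the threshold than both rises.

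Podocan, a more distant member known to restrain smooth muscle growth, held 57.8, 80.6, 63.4 and 66.6 CPM in PBS replicates 1 to 4 and 49.4, 116, 65.5 and 73.4 CPM in LPS replicates 1 to 4. LPS libraries were both the lowest and the highest of the 8. The log2 fold change was 0.18 (SE 0.24, adjusted p = 0.644). Without LPS replicate 2 it was -0.10.

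**Figure D2:**
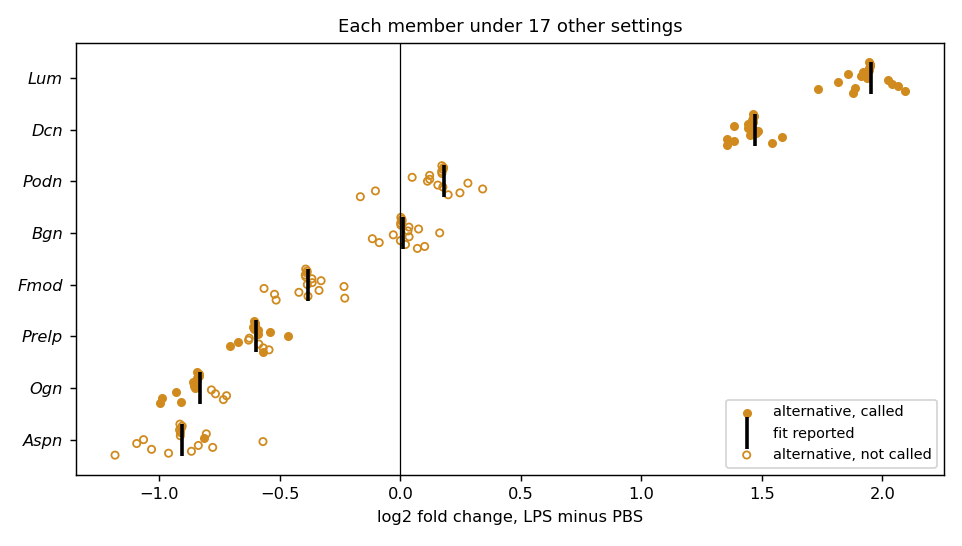
Log2 fold change, LPS minus PBS (horizontal axis), of each member in the fit reported (black bar) and in 17 other settings (points, filled where called at an adjusted p under 0.05). Points for Dcn and Lum are all filled, those for Ogn and Prelp are partly open, and those for Bgn and Podn lie on both sides of 0.

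The balance of the family moved towards decorin and lumican. The 8 genes together took 0.283% to 0.329% of all counts in PBS and 0.438% to 0.638% in LPS. Without Dcn and Lum, the other 6 took 0.143% to 0.192% in PBS and 0.117% to 0.157% in LPS, ranges that overlap. Ratios between members within a library do not depend on the scaling between libraries, and all 28 pairs were compared. Dcn over Bgn was 1.13 ± 0.338 on the log2 scale in PBS and 2.54 ± 0.296 in LPS (SD, n = 4 each, exact two-sided permutation p = 0.0286). Lum over Ogn was -0.17 ± 0.103 in PBS and 2.61 ± 0.659 in LPS (n = 4 each, exact two-sided permutation p = 0.0286), the largest shift of the 28.

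The ranges of the ratio did not overlap between the groups for 15 of the 28 pairs. These were the 12 pairs of Dcn or Lum with each of the other 6 genes, and Bgn over Prelp, Ogn over Podn and Aspn over Podn. Pairs share genes, so the 15 are not separate results, and 12 of them hold Dcn or Lum, already called higher. The share among pairs of other genes was not computed. Each of the 15 had an exact permutation p of 0.0286, the smallest that 4 libraries against 4 can give, and an adjusted p of 0.0533 over the 28 pairs. So 0 pairs passed the adjustment and 15 passed at an unadjusted p under 0.05. Dcn over Lum shifted by -0.48 (exact permutation p = 0.0571, adjusted p = 0.1), and Ogn over Aspn by -0.05 (exact permutation p = 0.886).

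**Figure D3:**
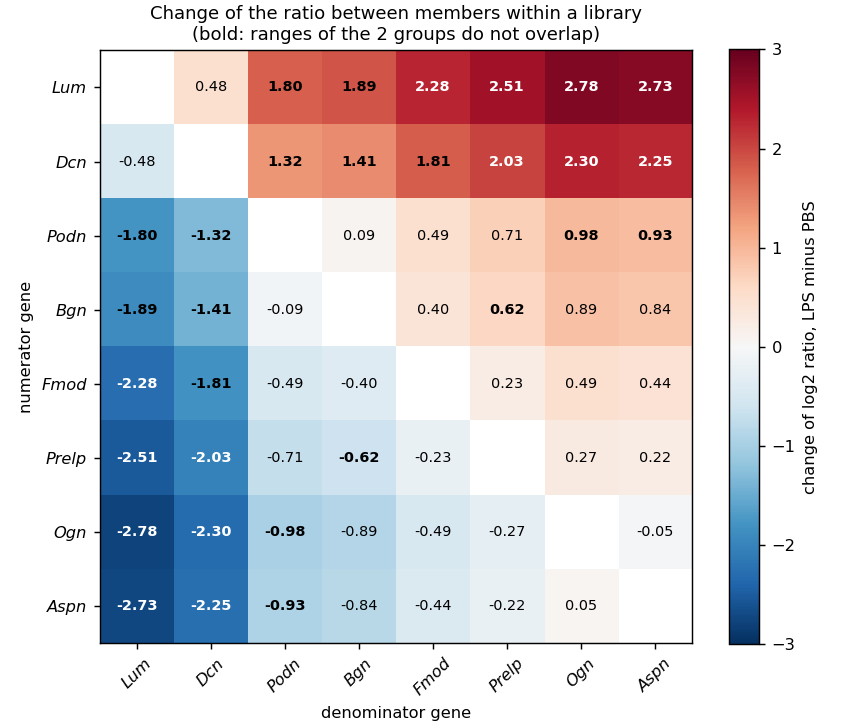
Change of the log2 ratio of the row gene over the column gene, LPS minus PBS, for all pairs of the 8 members (colour scale and printed value). Bold marks pairs whose ranges do not overlap between the groups. The Lum and Dcn rows are the highest, up to 2.78 for Lum over Ogn, while Ogn over Aspn stands at -0.05.

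Within a group some ratios varied little, although their means moved between the groups. Bgn over Prelp had an SD of 0.164 among the PBS libraries and of 0.0937 among the LPS libraries on the log2 scale, while its mean went from -0.21 to 0.42. Both genes were highest in replicate 1 and lowest in replicate 4 of the PBS group. Lum and Ogn kept an SD of 0.103 in PBS, where both were lowest in replicate 3, and of 0.659 in LPS.

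Most family genes lie side by side. In the RefSeq gene order (assembly GRCr8, a later build than the mRatBN7.2 named for the counts, so used for neighbourhood alone), Dcn and Lum are adjacent and are followed by Kera and Epyc. Optc, Prelp and Fmod form another run. Ogn, Omd, Aspn and Ecm2 form a further run, with Rpl6-ps6 before Ecm2, while Bgn and Podn stand apart from the others. Of the first run, both tested genes rose. Kera, a corneal keratan sulfate proteoglycan, had 0 to 7 counts per library and Epyc, a cartilage member, 0 to 4, so both fell below the filter.

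In the Optc run, Optc, which encodes opticin, held 8.02, 5.59, 6.53 and 5.07 CPM in PBS replicates 1 to 4 and 1.56, 2.33, 3.29 and 2.71 CPM in LPS replicates 1 to 4. It fell by 1.35 (SE 0.26, adjusted p = 0.0109), so that both Optc and its neighbour Prelp were lower. Fmod, the last of that run, did not pass (-0.38, edgeR adjusted p = 0.336). In the Ogn run, Omd, which encodes osteomodulin, held 5.67, 8.74, 4.31 and 6.83 CPM in PBS replicates 1 to 4 and 1.61, 2.61, 0.886 and 3.42 CPM in LPS replicates 1 to 4. It fell by 1.58 (SE 0.41, adjusted p = 0.0326), and leaving out PBS replicate 2, PBS replicate 4, LPS replicate 1 or LPS replicate 2 ended that call. Both calls, of Optc and of Omd, were lost without both PBS replicate 1 and LPS replicate 2. In the Ogn run, Aspn (-0.91, edgeR adjusted p = 0.0952) did not pass. Ecm2, at the end of that run and named after its values were seen, had a value of -0.17 (adjusted p = 0.593).

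Of the 7 tested relatives among 10 outside the 8 members, 1 rose and 2, Optc and Omd, fell. The one that rose was Tsku, which encodes tsukushi, a secreted modulator of several growth factor pathways, from 20.3 ± 0.923 to 27.7 ± 1.42 CPM (SD, n = 4 each; log2 fold change 0.45, SE 0.08, edgeR adjusted p = 0.00601). Among genes outside the family and within 3 places of a member, 2 were called, both named after their values were seen. The other tested ones passed in neither direction, and 16.9% of all genes tested were called. Whether neighbours differ from other genes was not tested. Atp2b4, a calcium pump next to Optc, fell by 0.86 (adjusted p = 0.0294), and Chi3l1, a chitinase-like protein 3 places after Fmod, rose by 2.58 (adjusted p = 0.00381). In the RefSeq table the gene Cenpp spans Ogn, Omd, Aspn and Ecm2, a long noncoding RNA gene overlaps each of Dcn, Prelp and Fmod, and a pseudogene overlaps Aspn. These are overlaps of whole gene spans, and exons were not compared. The strand setting of the counts is not given in the sources used here. Whether any reads of such overlapping genes were mixed was not tested. Cenpp itself had 0.729 CPM in PBS and 0.841 CPM in LPS (adjusted p = 0.749).

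**Figure D4:**
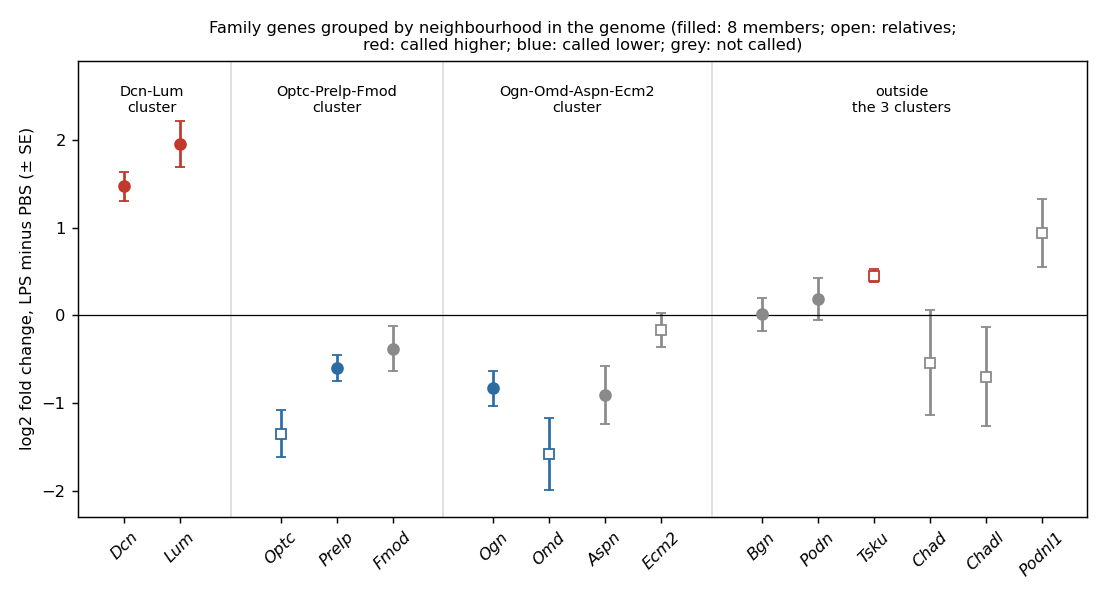
Log2 fold change, LPS minus PBS, with its SE (vertical axis) for the 8 members (filled circles) and 7 tested relatives (open squares), grouped by neighbourhood in the genome. Both genes of the Dcn-Lum cluster are called higher, while called genes of the other clusters, Optc, Prelp, Ogn and Omd, are lower.

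Promoter sequence from RefSeq (GRCr8) was at hand for 5 of the 8 members: Lum, Fmod, Ogn, Aspn and Podn. The 250 bases before the start were searched on both strands for 5 consensus patterns. That of the TATA box was spelled TATAAA. The loose NF-kB pattern was GGG and, after any 5 bases, CC. The pattern used for STAT factors was TTCNNNGAA, that of the AP-1 family was TGANTCA, and C/EBP factors were represented by TTGCNNAA. Lum, the member with the largest rise, had matches to the NF-kB pattern alone, and so did Podn, which passed no test. Fmod had NF-kB and STAT matches, Ogn had the TATA letters, and Aspn matched none of the 5. The loose NF-kB pattern is in 42.3% of all 33469 promoters of the table, the STAT pattern in 7.7%, the TATA letters in 12.9%, the AP-1 pattern in 6.3% and the C/EBP pattern in 9.2%, so these are descriptions of letters and not of bound sites. One match per gene and pattern is given in 30 bases, read on the gene's strand and chosen to set the risen gene beside those that fell or did not pass, with the match in capitals. Overlapping matches at the same place, which Lum, Fmod and Ogn have, are not repeated.
Lum, NF-kB pattern, chr7:34245569-34245598, plus strand: tggcgtgattGGGCTGGTCCccccccccct
Podn, NF-kB pattern, chr5:128025140-128025169, minus strand: cgcctgtgtcGGGAGAGGCCggcgtccggc
Fmod, NF-kB pattern, chr13:48045472-48045501, plus strand: aggaattcggGGGCGGGCCCtggcctggca
Fmod, STAT pattern, chr13:48045317-48045346, plus strand: ctgccaatgcTTCAGGGAAgataacccagt
Ogn, TATA letters, chr17:15259200-15259229, minus strand: tttaaaaagattTATAAActagcattcact

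The Lum match shown begins 127 bases before the start, the Podn match shown 102 and the Fmod NF-kB match shown 85. Podn has a further NF-kB match, on the opposite strand, that begins at 124 and does not overlap the one shown. That of the Ogn TATA letters begins at 222, far from the place just before the start where a TATA box usually acts.

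The enzymes that build the chains of these proteins were read from lists, as were the gene groups that follow. For comparison, 9.49% of all genes tested were higher and 7.45% lower. Of 21 tested enzymes of the linker and of chondroitin or dermatan sulfate, 1 rose and 2 fell, with a median log2 value of 0.04. Dse, the epimerase that turns chondroitin into dermatan sulfate, held 39.5, 32.3, 31.5 and 34.3 CPM in PBS replicates 1 to 4 and 79.98, 78.7, 105 and 76.2 CPM in LPS replicates 1 to 4. All LPS libraries were above all controls, and it rose by 1.31 (SE 0.13, adjusted p = 0.000761). B4galt7, which adds the first galactose of the linker, fell by 0.54 (adjusted p = 0.0234), and Chst3, which sulfates chondroitin, fell by 1.15 (adjusted p = 0.0296). Both calls were lost without PBS replicate 2 or LPS replicate 1, among others. The remaining enzymes, 18 of 21, passed in neither direction.

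Of 8 tested keratan sulfate enzymes, 2 rose and 0 fell (median 0.19). B3gnt7, which extends the chain, rose from 10.9 ± 3.33 to 32.96 ± 7.52 CPM (SD, n = 4 each; 1.60, edgeR adjusted p = 0.00377). Chst4, a sulfotransferase, was at 4.38 CPM in LPS replicate 4 and from 19.7 to 63.2 CPM in its group's remaining libraries, against at most 4.85 CPM in PBS. Its value of 3.69 passed (adjusted p = 0.0361), but not with either limma-voom fit, without a filter or without any one of 7 libraries, all but LPS replicate 4.

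Of 12 tested collagen chains that these proteins bind, 1 rose and 1 fell (median 0.20). Those counts are near the shares of all genes tested, 9.49% higher and 7.45% lower. Col3a1, the fibril chain of soft tissues, rose by 0.61 (SE 0.17, adjusted p = 0.0416). Its LPS replicate 2 stood at 7301 CPM, where the remaining LPS libraries ranged from 4656 to 4987 CPM. The call was lost without any one library other than LPS replicate 4. Without LPS replicate 2 the value was 0.43. Col11a1, a chain that nucleates fibrils, fell by 1.31 (adjusted p = 0.0204), which did not pass once PBS replicate 2, LPS replicate 1 or LPS replicate 3 was dropped. Col1a1 and Col1a2, the main fibril chains, named after their values were seen, had values of 0.17 (adjusted p = 0.560) and 0.25 (adjusted p = 0.377).

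Of 14 tested proteases reported to cut these proteoglycans, 8 rose and 0 fell (median 1.11). Mmp9, a gelatinase, rose by 7.06 (SE 0.57, adjusted p = 0.0004) and Mmp8, a neutrophil collagenase, by 5.94 (adjusted p = 0.00644). In PBS replicates 1 to 4, Mmp9 had 18, 3, 5 and 20 counts and Mmp8 had 21, 12, 23 and 39. The sizes of both changes thus rest on few control reads. Mmp8 stood at 115 CPM in LPS replicate 4, where the remaining LPS libraries ranged from 8.32 to 17.95 CPM, and without that library its value was 4.42. Neither limma-voom fit called it. The others that rose, named after their values were seen, were Mmp7, Adamts1, Adamts5, Bmp1, Tll1 and Gzmb. Of these, Bmp1, which trims the pro-form of decorin and biglycan, rose by 0.59 (adjusted p = 0.0370). Gzmb also had few control reads, with 5, 13, 7 and 17 counts in PBS replicates 1 to 4. Between 4 (without PBS replicate 2) and 10 passed across the alternatives, with 5 under limma-voom, without PBS replicate 3, without PBS replicate 4 or with PBS replicate 1 and LPS replicate 2 both left out.

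Of 26 receptors and bound ligands, 8 rose and 2 fell (median 0.29). Lrp1, the endocytic receptor that takes up decorin, rose from 403 ± 22.2 to 1073 ± 173 CPM (SD, n = 4 each; 1.41, edgeR adjusted p = 0.000568). Tlr2, a receptor for soluble biglycan and decorin, rose by 1.72 (adjusted p = 0.00381). Tlr4, which shares that role and senses LPS, fell by 0.35 (adjusted p = 0.0446), but did not pass with limma-voom or without any one of 6 libraries, all except PBS replicate 1 and LPS replicate 4. Bmp2, a growth factor, fell by 0.94 (adjusted p = 0.00979). The transforming growth factors bound by decorin, Tgfb1, Tgfb2 and Tgfb3, were named after their values were seen and did not pass (adjusted p of 0.0634, 0.0821 and 0.0519).

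Of 13 tested proteoglycans outside the leucine-rich family, 3 rose and 1 fell (median 0.02). Vcan, the large hyaluronan-binding versican, rose from 116 ± 14.6 to 295 ± 60.6 CPM (SD, n = 4 each; 1.34, edgeR adjusted p = 0.00147). Srgn, serglycin of leukocyte granules, rose by 0.98 (adjusted p = 0.00267). Spock2, a testican, fell by 1.44 (adjusted p = 0.0126), but did not pass with PBS replicate 1 and LPS replicate 2 both left out.

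**Figure D5:**
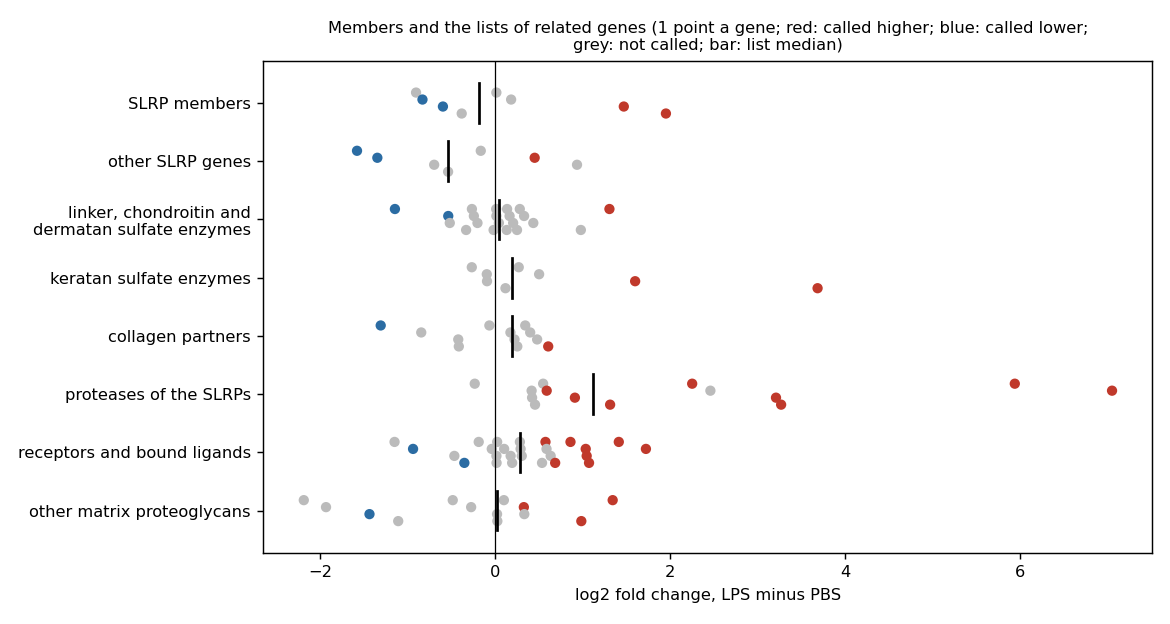
Log2 fold change, LPS minus PBS (horizontal axis), of the tested genes of the 8 members and of 7 lists of related genes (1 point a gene, coloured by call, with a bar at the list median). The protease list has the highest median, 1.11, and members lie on both sides of 0.

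These are bulk libraries, so fewer cells of a type and less RNA per cell cannot be told apart. Of 12 fibroblast markers, 3 rose and 0 fell, and their summed level was 1786 to 2371 CPM in PBS and 2216 to 3214 CPM in LPS. Without PBS replicate 2, 1 rose. DESeq2 called 5 higher and 2 lower. With either PBS replicate 3 or LPS replicate 2 dropped, 1 marker was called lower. Those that rose were Pdgfra, Fbln1 and Vim. Among those that did not pass, Pdgfrb, Thy1, Twist2 and Tcf21 had values of 0.14 to 0.65. Cd34, Mfap5, Pi16, Dpt and Fap, which did not pass either, had values of -0.88 to -0.17. The list median was 0.33, and all 12 were named after their values were seen. Of 10 smooth muscle markers, 7 fell, and their sum was 4957 to 13720 CPM in PBS and 4158 to 6033 CPM in LPS. That count ran from 0, with PBS replicate 1 and LPS replicate 2 both left out or with a replicate block, to 10 across the alternatives. It was 1 to 3 without any one of PBS replicates 1 to 3 or LPS replicates 1 to 3. With limma-voom or without a filter it was 4. Of 8 Schwann cell and nerve markers, 2 fell, and their sum was 259 to 469 CPM in PBS and 102 to 224 CPM in LPS. Leaving out any one of 6 libraries, all except LPS replicates 1 and 2, reduced that count to 1. Of 5 tested squamous epithelium markers among 10, 1 fell, with sums of 4772 to 8892 CPM in PBS and 3073 to 4066 CPM in LPS. Of 6 tested red cell markers, 3 fell (0 with PBS replicate 2, LPS replicate 1 or LPS replicate 4 left out), with sums of 505 to 1618 CPM in PBS and 84.7 to 474 CPM in LPS. Of 10 macrophage markers, 8 rose, with sums of 545 to 820 CPM in PBS and 1307 to 2069 CPM in LPS. Of 7 tested neutrophil markers among 10, 6 rose, with sums of 34.9 to 57.9 CPM in PBS and 388 to 1622 CPM in LPS, while Ltf had 0 counts in every library. The part of these cell types in the rises of Dcn and Lum and in the falls of Prelp and Ogn was not tested.

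Likeness of pattern was measured as the root mean square difference of centred log2 CPM over the 8 libraries, against 10203 genes. These had a mean level of at least 10 CPM, and genes with placeholder symbols, such as those starting with LOC, were left out. The genes nearest to Dcn were Ifitm2, an interferon-induced membrane protein (0.120), and C1qtnf7 (0.146). Those nearest to Lum were the protease Adamts15 (0.259) and the survival gene Bcl2a1 (0.282). Dcn was the 22nd nearest gene to Lum, while Lum was the 197th nearest to Dcn.

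Ogn was most like Nes, which encodes nestin (0.141), and Tent5b (0.174). Aspn was most like Fndc1 (0.223) and Ankrd33b (0.245). Ogn was the 9th nearest gene to Aspn, while Aspn was the 242nd nearest to Ogn. Prelp was most like Lcmt1 (0.114) and Cipc (0.118). Fmod was most like Snx29 (0.210) and Entpd1 (0.217). Bgn was most like Ak1, an adenylate kinase (0.0723), and Pde8a (0.0794), and Podn was most like Pde3b (0.164) and the collagen chain Col4a6 (0.169). No member was among the 2 genes most like another member. The nearest member held rank 995 for Fmod, 2233 for Prelp, 5146 for Bgn and 6267 for Podn.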

How the data were processed

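The table deposited by the authors gives unnormalized counts by gene symbol. Named in the submitters' processing notes, with no roles, are HISAT2, HTSeq, fastp, R 3.2.0 and the build mRatBN7.2. For strand and annotation, the setting is not given in the sources used here. Columns were matched to samples by library name, and groups come from the titles. Genes were kept by edgeR's filterByExpr, scaled by TMM and compared with edgeR 4.0.16 in R 4.3.3 (robust quasi-likelihood F test, no covariate, Benjamini-Hochberg over all 16117 genes, called at adjusted p under 0.05). The procedure was tested on simulated data. The SE is the log2 fold change divided by the square root of F. Ratios used a pseudocount of 0.5 and exact permutation tests over libraries. A floor of 3 counts was 0.0734 to 0.0899 CPM. CPM are not corrected for gene length, so levels are compared within a gene.

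Members and lists were chosen with earlier results of these data known. Named genes were the members, the 2 called genes of lowest adjusted p per list and direction, and the 2 most like each member. Other settings tried were each library left out, both PBS replicate 1 and LPS replicate 2 left out, a replicate block, upper-quartile or RLE scaling, no filter or a minimum of 1 CPM in 4 libraries, limma-voom (limma 3.58.1) unweighted or weighted by library quality, and DESeq2 1.42.0. For ratios, a pseudocount of 5 was tried. Marker lists for squamous epithelium (1 of 5 tested fell), columnar epithelium (1 of 9 fell), endothelium (1 of 9 fell), T, NK and B cells (1 of 8 rose) and red cells (3 of 6 fell) were also read. The endothelium call was lost without any one of 5 libraries and the T, NK and B cell call without any one of 6.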

Additional observations from a re-analysis of the deposited data

Results flagged for a closer look

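None of the 16 groups of 4 libraries of the 8 members held a library set apart from the others by Dixon's test at 95%. Among the 86 groups of 4 tested for all genes named by rule, 5 did, where chance gives about 1 in 20. LPS replicate 3 held 105 CPM of Dse, where the group's remaining values were 76.2 to 79.98 CPM. LPS replicate 2 held 7301 CPM of Col3a1, far above the other LPS libraries. LPS replicate 4 held 115 CPM of Mmp8. PBS replicate 4 held 17.9 CPM of Bmp2 against 11.3 to 12.3 CPM in the other controls, and PBS replicate 1 held 78.4 CPM of Cipc against 57.3 to 60.9 CPM.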

How the results depend on the processing

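Across the 17 alternatives, 2 members were called higher in each. With 1 library left out, 0 to 2 members were called lower, and 3 were with DESeq2 and with the replicate block. Over all genes, leaving out a library gave 904 to 1385 higher and 563 to 1199 lower genes (lowest for both without PBS replicate 2; 752 lower without PBS replicate 3, 750 without LPS replicate 3), and DESeq2 gave 2089 lower. With 1 library left out, 0 ratio pairs passed the adjustment in each case. The smallest possible permutation p was 0.0286 there too, so that 0 is limited in the same way as with all 8 libraries. The replicate block (pairing by number) gave 1151 higher and 845 lower genes and changed 1 member's call, that of Aspn (-0.81, adjusted p = 0.0412). Under it Col3a1, Chst4 and Tlr4 were not called, and 0 smooth muscle, 0 red cell and 0 endothelium markers were lower (5 red cell markers with DESeq2). Same-numbered libraries had correlated deviations of -0.13, -0.18, -0.09 and 0.21, and 2 of 8 libraries correlated best with their own number, so the number was not taken to pair animals. Numbers are those of the titles, and LPS replicate 4 carries library number 5 in the labels. The sign-flip test by number cannot give a p below 0.125, nor 3 libraries against 3 one below 0.1, so their 0 pairs say nothing. Signs turned for members and genes near 0 without 1 library (Bgn -0.12 to 0.16, Podn -0.10 to 0.34, Ak1 -0.036 to 0.19, Pde8a -0.022 to 0.21, Pde3b -0.17 to 0.13, Col4a6 -0.18 to 0.32). They turned also without both PBS replicate 1 and LPS replicate 2 (Podn -0.17, Pde3b -0.20, Col4a6 -0.13) and, for Pde3b, with limma-voom (-0.021), its weighted fit (-0.065) and the replicate block (-0.016). The cause was not tested.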
